A study of Mus musculus with 3 samples.

Results

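The genes described here mark the olfactory neuron, from its basal progenitor to the mature cell, and carry the odour signal inside it. They were chosen as 36 symbols of known role, and all 36 had a row among the 23234 genes of each deposited table. They were read in RNA from 3 populations that were sorted as leukocytes, not as neurons. DP cells (CD45+Ly6G+SiglecF+) came from the nose 2 days after intranasal lipopolysaccharide (LPS), which is a component of bacterial cell walls and draws neutrophils into tissue. Nasal neutrophils (CD45+Ly6G+SiglecF-) came from the nose 1 day after LPS. Blood neutrophils, sorted with that gate of nasal neutrophils, came from peripheral blood 1 day after LPS. All donors were wild-type C57BL/6J mice of 6 to 15 weeks, and all received the same LPS dose, 10 µg in a volume of 10 µL. Each group was 1 library, so no difference given here has a replicate error or a test. How many animals a library holds is not stated in the sources used here.

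Mature olfactory neurons detect odours with receptors on nasal cilia. A receptor activates the G protein Golf, adenylyl cyclase 3 then makes cyclic AMP, cyclic AMP opens a cation channel, and a calcium-activated chloride channel amplifies the current. The neurons are replaced through life from basal progenitors, and immature neurons express growth and cytoskeletal genes before olfactory marker protein appears.

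Neutrophil markers were present in all 3 libraries. All 9 listed neutrophil markers with a row reached 1 FPKM (fragments scaled to transcript length and to library depth) in each, and their summed level was 5034 FPKM in DP, 26494 FPKM in nasal neutrophils and 79452 FPKM in blood neutrophils. S100a9 and Retnlg carried the order of these sums, since the 7 others summed to 1658 FPKM in DP, 9526 FPKM in nasal neutrophils and 6319 FPKM in blood neutrophils. Ptprc, the gene of CD45, was higher in DP than in nasal neutrophils, at 445.1 and 136.7 FPKM. The 8 other markers were lower in DP, Csf3r only slightly, at 581.4 and 606.8 FPKM. With 1 FPKM added to each value, 5 of the 9 were at least 4-fold lower in DP. Among genes averaging at least 1 FPKM across the libraries, 3.62% were so much lower. Ly6g, the gene of the sort antigen, was also listed but had no row under that symbol. Steps between the lowest values put the depth at about 54800000 fragments in DP, 12800000 fragments in nasal neutrophils and 54300000 fragments in blood neutrophils. A level of 1 FPKM in a transcript of 1 kb then rests on about 55, 13 and 54 fragments in that order, so low values are least certain in nasal neutrophils.

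Olfactory neuron genes were present in both nasal libraries and nearly absent from blood. In DP 33 of 36 members reached 1 FPKM, where 48.6% of all genes did. In nasal neutrophils 32 of 36 members did so, beside 45.0% of all genes. In blood neutrophils 3 members did so, beside 33.2% of all genes, and 19 members were listed at 0, beside 38.3% of all genes. The summed level of the members was 2574 FPKM in DP, 1358 FPKM in nasal neutrophils and 8.17 FPKM in blood neutrophils. These sums made up 0.404% of the total FPKM of the DP library, 0.219% of that of nasal neutrophils and 0.00123% of that of blood neutrophils. In RNA from a bulk sort, fewer cells of a type and less RNA per cell cannot be told apart.

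Of the 36 members, 22 stood at 1 FPKM or more in both nasal libraries and under 0.1 FPKM in blood. That pattern held for 1111 of 23234 genes, or 4.78%. Among those genes Omp ranked 12th in DP and 5th in nasal neutrophils. Stoml3, at 0.103 FPKM in blood, lay just outside the limit, while Stmn3, at 0.0913 FPKM, lay just inside it. The members were chosen as nasal tissue genes with earlier results of these data known, so the counts describe the libraries.

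**Figure D1:**
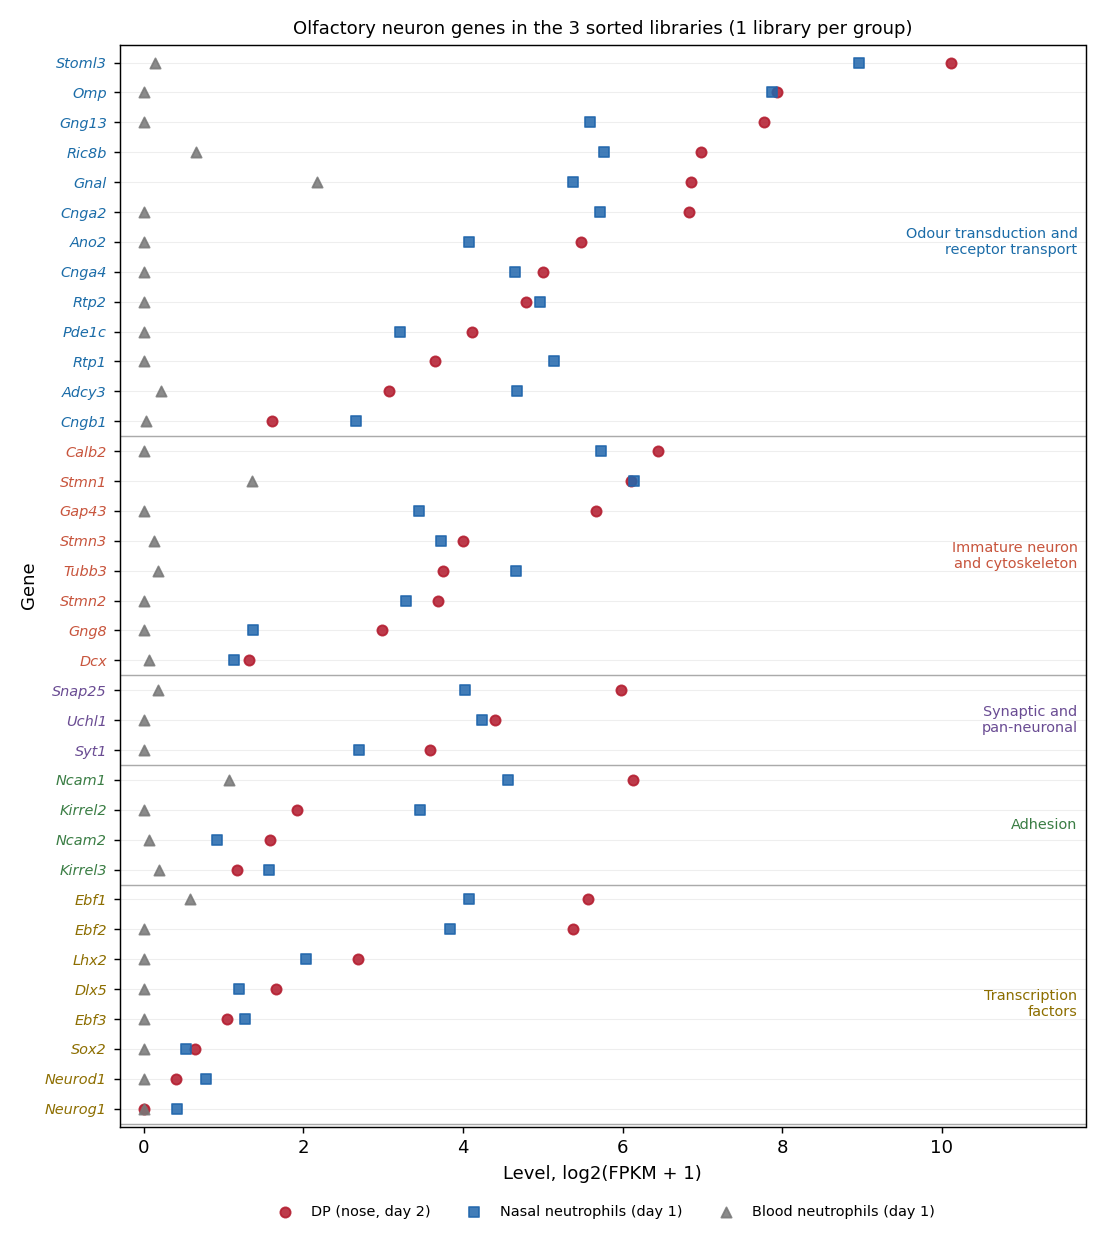
Level of each of the 36 members in the DP, nasal neutrophil and blood neutrophil libraries, as log2(FPKM + 1) on the horizontal axis, 1 point per library, with genes grouped by role. The nasal points lie to the right of the blood triangle for all genes but Neurog1, whose DP point lies on it at 0.

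Of the genes at the start of the odour pathway, Gnal, Gng13 and Ric8b were among the 8 most abundant members in both nasal libraries, and Adcy3 was not. Gnal, which encodes the alpha subunit of Golf, stood at 114.6 FPKM in DP, 40.6 FPKM in nasal neutrophils and 3.51 FPKM in blood neutrophils. It was the highest of all members in blood, so its RNA was not limited to the nose. Gng13, which encodes the gamma subunit that partners Golf in cilia, stood at 217.1 FPKM in DP and 47.3 FPKM in nasal neutrophils, with a 0 listed for blood. Its level in DP was 4.59-fold that in nasal neutrophils, a log2 ratio of 2.17 after 1 FPKM was added to each value. Ric8b encodes an exchange factor that acts on Golf, and its level was 125.1 FPKM in DP, 53.4 FPKM in nasal neutrophils and 0.578 FPKM in blood neutrophils. Adcy3, which encodes adenylyl cyclase 3, ran the other way, at 7.39 FPKM in DP, 24.6 FPKM in nasal neutrophils and 0.164 FPKM in blood neutrophils. Gnal was thus 15.5 times as high as Adcy3 in DP and 1.65 times as high in nasal neutrophils.

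The subunits of the cyclic AMP-gated channel did not keep a fixed proportion. Cnga2, which encodes the principal subunit, stood at 113.4 FPKM in DP and 51.7 FPKM in nasal neutrophils, with a 0 listed for blood. The level of Cnga4, which encodes a modulatory subunit, was 31.1 FPKM in DP and 24.1 FPKM in nasal neutrophils, also with a 0 listed for blood. That of Cngb1, which encodes the other one, was 2.06 FPKM in DP, 5.35 FPKM in nasal neutrophils and 0.0224 FPKM in blood neutrophils. The level of Cnga4 was 0.275 of that of Cnga2 in DP and 0.466 of it in nasal neutrophils. The level of Cngb1 was 0.0182 of that of Cnga2 in DP and 0.103 of it in nasal neutrophils, so the principal subunit was further above its partners in DP.

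Downstream and accessory genes of the cilium were higher in DP or close to equal. Ano2, which encodes the olfactory calcium-activated chloride channel, stood at 43.8 FPKM in DP, 15.8 FPKM in nasal neutrophils and 0.00457 FPKM in blood neutrophils. Pde1c, whose product breaks down cyclic AMP under calcium and calmodulin, stood at 16.4 FPKM in DP and 8.31 FPKM in nasal neutrophils, with a 0 listed for blood. Stoml3 encodes a stomatin-family membrane protein of olfactory cilia and was the most abundant member in both nasal libraries, at 1104 FPKM in DP and 497.3 FPKM in nasal neutrophils. Omp, the cytoplasmic olfactory marker protein of mature neurons, ranked next in both, and at 244.0 FPKM in DP and 233.6 FPKM in nasal neutrophils it barely differed. Stoml3 stood 4.53 times above Omp in DP and 2.13 times above it in nasal neutrophils, and Gng13 at 0.890 of Omp in DP and 0.203 of it in nasal neutrophils. A comparison scaled to Omp and one scaled to Gng13 would therefore place the nasal libraries differently.

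The receptor transporting proteins, which bring odorant receptors to the cell surface, were not higher in DP. Rtp1 stood at 11.6 FPKM in DP and 34.3 FPKM in nasal neutrophils, with a 0 listed for blood. Rtp2 stood at 26.6 FPKM in DP, 30.3 FPKM in nasal neutrophils and 0.00765 FPKM in blood neutrophils. Odorant receptor genes themselves, 1118 rows in the tables, summed to 1231 FPKM in DP, 392.5 FPKM in nasal neutrophils and 25.5 FPKM in blood neutrophils. Most receptor rows were low or at 0, so these sums do not show a broadly present repertoire. The blood library had 1072 of the 1118 rows at 0, and only 4 reached 1 FPKM. That level was reached by 309 rows for DP, with 265 at 0. Nasal neutrophils had 93 such rows and 334 at 0. The receptor sum was 3.14-fold higher in DP than in nasal neutrophils, while Rtp1 was at 0.337 of its nasal neutrophil level. Rtp1 and Rtp2 belong to a family of related sequences, and whether reads were divided among them was not tested.

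Promoters were read for the Olf/EBF motif because Ebf1, Ebf2 and Ebf3 are members and bind it in olfactory neurons. RefSeq start sites of build GRCm38.p6 gave 34 promoters for 24 members, each 250 bases before to 50 after the start. The motif TCCCNNGGG was searched on both strands. It was found in 5 of 24 members with a promoter, Ano2, Cnga2, Ebf3, Gng13 and Kirrel2, or 20.8%, and in 7.48% of 27025 genes. By promoter it was in 5 of 34 and in 6.56% of all 32851. Its longer palindrome, half-sites TCCC and GGGA with 2 bases between, contains the shorter motif and was in 0 of the 34 and in 0.904% of all promoters. The homeodomain motif TAATTA, which LIM homeodomain factors such as Lhx2 can bind and which overlaps neither of the others, was in 3 of the 34, in Dcx and Neurog1, and in 5.29% of all promoters. A match is a run of letters and not evidence of binding. The 250 bases before the start are shown for the 3 members with the motif that reached 10 FPKM in both nasal libraries, with the motif in capitals and the gene's strand read 5′ to 3′.
Cnga2 (chrX:71991599-71991848, plus strand): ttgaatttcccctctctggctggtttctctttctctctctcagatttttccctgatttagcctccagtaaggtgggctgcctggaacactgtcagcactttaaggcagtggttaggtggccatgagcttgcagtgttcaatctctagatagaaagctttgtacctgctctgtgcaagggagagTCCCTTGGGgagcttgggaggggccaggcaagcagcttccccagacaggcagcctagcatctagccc
Gng13 (chr17:25716922-25717171, plus strand): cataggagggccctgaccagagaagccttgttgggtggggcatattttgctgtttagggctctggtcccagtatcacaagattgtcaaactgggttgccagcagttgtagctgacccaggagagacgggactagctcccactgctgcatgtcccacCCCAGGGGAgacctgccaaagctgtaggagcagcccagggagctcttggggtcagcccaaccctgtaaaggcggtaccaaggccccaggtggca
Ano2 (chr6:125710938-125711187, plus strand): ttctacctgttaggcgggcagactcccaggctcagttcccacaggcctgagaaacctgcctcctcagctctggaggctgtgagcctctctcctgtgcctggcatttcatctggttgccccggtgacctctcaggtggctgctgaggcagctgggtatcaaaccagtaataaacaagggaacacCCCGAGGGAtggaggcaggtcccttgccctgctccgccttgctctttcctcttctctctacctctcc
In Cnga2 and in Ano2 the motif lay 67 to 59 bases before the start, and in Gng13 it lay 94 to 86 bases before it. For Ano2 the start shown is an internal one of several that RefSeq lists. These 3 genes were all higher in DP than in nasal neutrophils, Kirrel2 was lower, and Ebf3 was low in both, as given below.

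Genes of the immature neuron did not move as 1 group. Gap43, a growth cone protein gene, stood at 49.7 FPKM in DP and 9.96 FPKM in nasal neutrophils, with a 0 listed for blood. Gng8, which encodes the gamma subunit of immature olfactory neurons, stood at 6.91 FPKM in DP and 1.58 FPKM in nasal neutrophils, about 345 and 18 fragments, with a 0 listed for blood. Tubb3, a neuronal beta-tubulin gene, stood at 12.5 FPKM in DP, 24.4 FPKM in nasal neutrophils and 0.134 FPKM in blood neutrophils. Gap43 and Gng8 were thus higher in DP and Tubb3 was lower. Dcx, which encodes a microtubule-binding protein of young neurons, was low at 1.49 FPKM in DP, 1.18 FPKM in nasal neutrophils and 0.0456 FPKM in blood neutrophils. Calb2, the calcium-binding protein calretinin, was much higher, at 86.1 FPKM in DP and 52.3 FPKM in nasal neutrophils, with a 0 listed for blood.

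The balance of immature to mature transcripts depended on the genes set against each other. The level of Gap43 was 0.204 of that of Omp in DP and 0.0426 of it in nasal neutrophils, a 4.78-fold higher proportion in DP. The level of Gng8 was 0.0318 of that of Gng13 in DP and 0.0335 of it in nasal neutrophils, and so near equal. The level of Gap43 was 0.229 of that of Gng13 in DP and 0.210 of it in nasal neutrophils, again near equal. As deposited, the proportion of Gap43 thus differed between the libraries with Omp as the denominator and hardly with Gng13. With 1 FPKM added, the log2 ratio of DP over nasal neutrophils was 2.21 for Gap43 and 2.17 for Gng13. Corrected for transcript length, as described below, these were 1.29 and 0.76, so less alike. Gng13 and Gng8 have short transcripts, of 719 and 910 nt, and Gng8 rests on about 18 fragments in nasal neutrophils.

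The stathmins, which destabilise microtubules, were close to equal in the nasal libraries as deposited. Stmn2, a neuronal stathmin gene, stood at 11.9 FPKM in DP and 8.75 FPKM in nasal neutrophils, with a 0 listed for blood. Stmn3, also mainly neuronal, stood at 15.0 FPKM in DP, 12.3 FPKM in nasal neutrophils and 0.0913 FPKM in blood neutrophils. Stmn1, which dividing cells of many kinds also express, stood at 67.9 FPKM in DP, 69.9 FPKM in nasal neutrophils and 1.57 FPKM in blood neutrophils. Correction for length also centres ratios on the median of all genes compared. With it, the log2 ratio of DP over nasal neutrophils was -1.10 for Stmn1, -0.78 for Stmn3 and -0.26 for Stmn2. Centred alone, these were -0.62, -0.30 and -0.17, so all 3 lay below that median either way. Of 8 listed cell division genes, the number that reached 1 FPKM was 6 in DP, 5 in the nasal and 2 in the blood neutrophil library, with none at 0. They summed to 77.3 FPKM in DP, 40.2 FPKM in nasal neutrophils and 13.0 FPKM in blood neutrophils. Pcna, which is also a DNA repair gene, carried the difference between the nasal libraries, and the 7 others summed to 13.3 FPKM in DP, 15.4 FPKM in nasal neutrophils and 5.89 FPKM in blood neutrophils. Their part in the Stmn1 level was not tested.

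Of the synaptic and general neuronal members, Snap25 and Syt1 were higher in DP and Uchl1 was close to equal. Snap25, a component of the vesicle fusion complex, stood at 62.0 FPKM in DP, 15.3 FPKM in nasal neutrophils and 0.131 FPKM in blood neutrophils. Its level in DP was 4.04-fold that in nasal neutrophils, a log2 ratio of 1.95 after 1 FPKM was added to each value. Syt1, the calcium sensor of vesicle release, stood at 11.0 FPKM in DP, 5.48 FPKM in nasal neutrophils and 0.00375 FPKM in blood neutrophils. Uchl1, a ubiquitin hydrolase gene of neurons, stood at 20.2 FPKM in DP and 17.9 FPKM in nasal neutrophils, with a 0 listed for blood. Uchl1 thus barely differed as deposited.

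Adhesion genes divided. Ncam1 encodes the neural cell adhesion molecule and, in humans, is also a gene of some natural killer cells. It stood at 69.0 FPKM in DP, 22.7 FPKM in nasal neutrophils and 1.11 FPKM in blood neutrophils. The 8 listed T and natural killer cell markers summed to 19.9 FPKM in DP, 8.70 FPKM in nasal neutrophils and 11.2 FPKM in blood neutrophils. Of these 8, 3 reached 1 FPKM in each library and none was at 0. Their part in the Ncam1 level was not tested. Ncam2, the related molecule of olfactory axons, was low at 2.01 FPKM in DP, 0.887 FPKM in nasal neutrophils and 0.0515 FPKM in blood neutrophils. Kirrel2, which takes part in the sorting of olfactory axons, stood at 2.79 FPKM in DP and 10.0 FPKM in nasal neutrophils, with a 0 listed for blood. Kirrel3, its counterpart in other axons, stood at 1.26 FPKM in DP, 1.96 FPKM in nasal neutrophils and 0.141 FPKM in blood neutrophils, so both Kirrel genes were lower in DP.

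Among transcription factors, the Olf/EBF genes Ebf1 and Ebf2 stood highest in both nasal libraries, while Ebf3 and the factors of progenitors were low. Ebf1 stood at 46.5 FPKM in DP, 15.8 FPKM in nasal neutrophils and 0.50 FPKM in blood neutrophils. Ebf2 stood at 40.6 FPKM in DP and 13.3 FPKM in nasal neutrophils, with a 0 listed for blood. Ebf3 stood at 1.06 FPKM in DP and 1.41 FPKM in nasal neutrophils, with a 0 listed for blood. The level of Ebf2 was 0.873 of that of Ebf1 in DP and 0.839 of it in nasal neutrophils, so these factors kept their proportion. The level of Ebf3 was 0.0227 of that of Ebf1 in DP and 0.0892 of it in nasal neutrophils, so Ebf3 did not. Ebf1 is also a B cell factor. The 8 listed B cell markers summed to 8.07 FPKM in DP, 53.4 FPKM in nasal neutrophils and 71.7 FPKM in blood neutrophils. Of these, 3 reached 1 FPKM in DP, where Pax5 and Blk were at 0, and 6 did so in each of the others. Cd79a, Vpreb3 and Pax5 were highest in nasal neutrophils and the 5 others in blood. Their part in the Ebf1 level was not tested.

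Lhx2, a LIM homeodomain factor needed for olfactory neuron maturation, stood at 5.43 FPKM in DP and 3.10 FPKM in nasal neutrophils. Dlx5, a homeodomain factor of the olfactory placode, stood at 2.15 FPKM in DP and 1.30 FPKM in nasal neutrophils. Sox2, a factor of basal progenitors and supporting cells, stood at 0.559 FPKM in DP and 0.442 FPKM in nasal neutrophils. All 3 were thus below Ebf1 and Ebf2 in both nasal libraries. Neurod1, a factor of neuronal precursors, stood at 0.323 FPKM in DP and 0.713 FPKM in nasal neutrophils. Neurog1, which acts earlier in the same precursors, was listed at 0 in DP and stood at 0.340 FPKM, about 7 fragments, in nasal neutrophils. All 5 genes were listed at 0 in blood.

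Set side by side, the nasal libraries differed gene by gene more than as a whole. Ratios were compared over the 10719 genes that averaged at least 1 FPKM across the libraries, called tested genes here. Counts at 4-fold were made after 1 FPKM was added to each value, which brings the ratio of a low gene closer to 1. Of the 36 members 30 met this, while Dcx, Ncam2, Ebf3, Sox2, Neurod1 and Neurog1 did not. Of the 30, 2 were at least 4-fold higher in DP than in nasal neutrophils, Gng13 and Gap43, where 8.42% of tested genes were. None was at least 4-fold lower, where 3.62% were. As deposited, Gng8 and Snap25 were also over 4-fold higher in DP, at 4.36-fold and 4.04-fold. The median log2 ratio of the 30 members was 0.68 and that of all tested genes 0.57. Relative to the median of all tested genes, 16 members were higher and 14 were lower, so the median ratio of the list was close to that of all tested genes. Over all 36 members, with no filter, the median was 0.43 and that of all genes was 0.02. Those 2 medians are over unlike sets. Of all 23234 genes, 4896 were listed at 0 in DP and 5454 in nasal neutrophils, against 1 and 0 of the members.

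The spread inside the list was wide, from -1.61 for Adcy3 to 2.21 for Gap43. The 13 transduction and transport genes had a median log2 ratio of 0.90, the 7 tested immature neuron genes 0.40, the 3 synaptic genes 0.89, the 3 tested adhesion genes -0.39 and the 4 tested transcription factors 1.07. Role did not order the genes, since transduction held both Gng13 at 2.17 and Adcy3 at -1.61, and adhesion held both Ncam1 at 1.56 and Kirrel2 at -1.54. Under the 7 other settings of pseudocount, scaling and correction that can change a gene's own ratio, 15 of the 30 members were higher in DP in every one and 8 were lower in every one. The 7 others, Omp, Cnga4, Stmn2, Stmn3, Calb2, Uchl1 and Dlx5, changed direction under at least 1, with log2 ratios as low as -0.89 for Uchl1 and -0.78 for Stmn3.

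**Figure D2:**
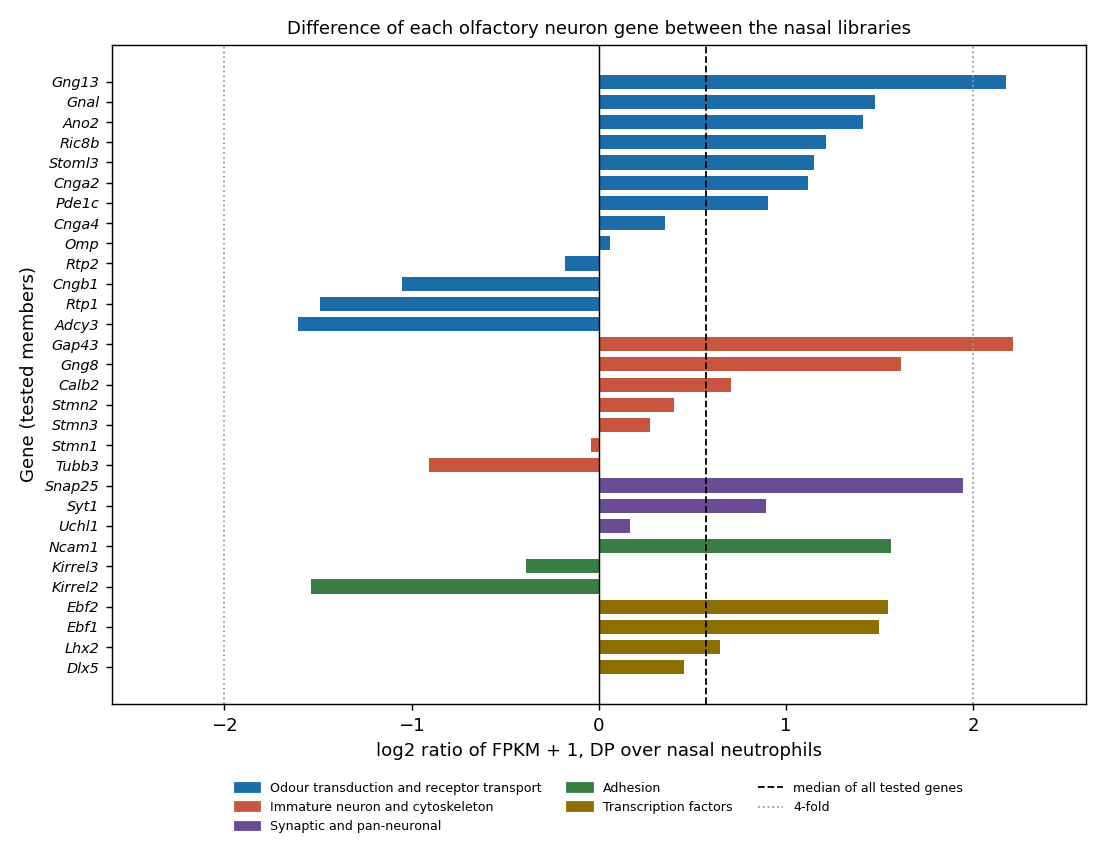
Log2 ratio of FPKM + 1, DP over nasal neutrophils, for the 30 tested members, 1 bar per gene, coloured by role. The dashed line is the median of all tested genes at 0.57, and the dotted lines mark 4-fold; Gng13 and Gap43 pass it, and 8 genes lie left of 0.

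GC content and length of the transcripts moved with the difference between the nasal libraries across all genes. With tested genes divided into 10 bins of 1058 by transcript GC content, the median log2 ratio of DP over nasal neutrophils was 0.98 in the bin of lowest GC content and 0.02 in that of highest. For nasal over blood neutrophils the same medians were -0.0024 and 1.00, and for DP over blood neutrophils they were 0.88 and 0.94. The trend thus appeared in both comparisons that hold the nasal neutrophil library and was small in the one that does not. By transcript length, DP over nasal neutrophils had a median of 1.25 in the bin of shortest transcripts and 0.27 in that of the longest. The same medians were 1.29 and 0.52 for DP over blood neutrophils, and 0 and 0.26 for nasal over blood neutrophils. The length trend was thus larger in both comparisons that hold the DP library. Of the 5 members lower in DP by 0.5 or more, Adcy3, Kirrel2, Rtp1, Cngb1 and Tubb3, GC content ran between 48.2% and 57.9% with a median of 57.0%. The 16 members above the all-gene median had a median GC content of 48.7%. Gng13, at 58.7% GC, and Gng8, at 56.9% GC, were high in DP against that trend, though both have short transcripts, of 719 and 910 nt. Both corrections subtract the median of each gene's bin, so they also centre the ratios on the median of tested genes. With ratios corrected for GC content, Adcy3 stood at -1.71, Kirrel2 at -1.64, Rtp1 at -2.10 and Gng13 at 2.18. Centred alone, they stood at -2.18, -2.11, -2.06 and 1.60. With ratios corrected for length, Gng13 stood at 0.76, Gng8 at 0.47 and Gap43 at 1.29, beside 1.60, 1.04 and 1.64 when centred alone. Omp stood at 0.06 as deposited and -0.51 when centred alone. It stood at -0.04 with GC correction and -0.50 with length correction.

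**Figure D3:**
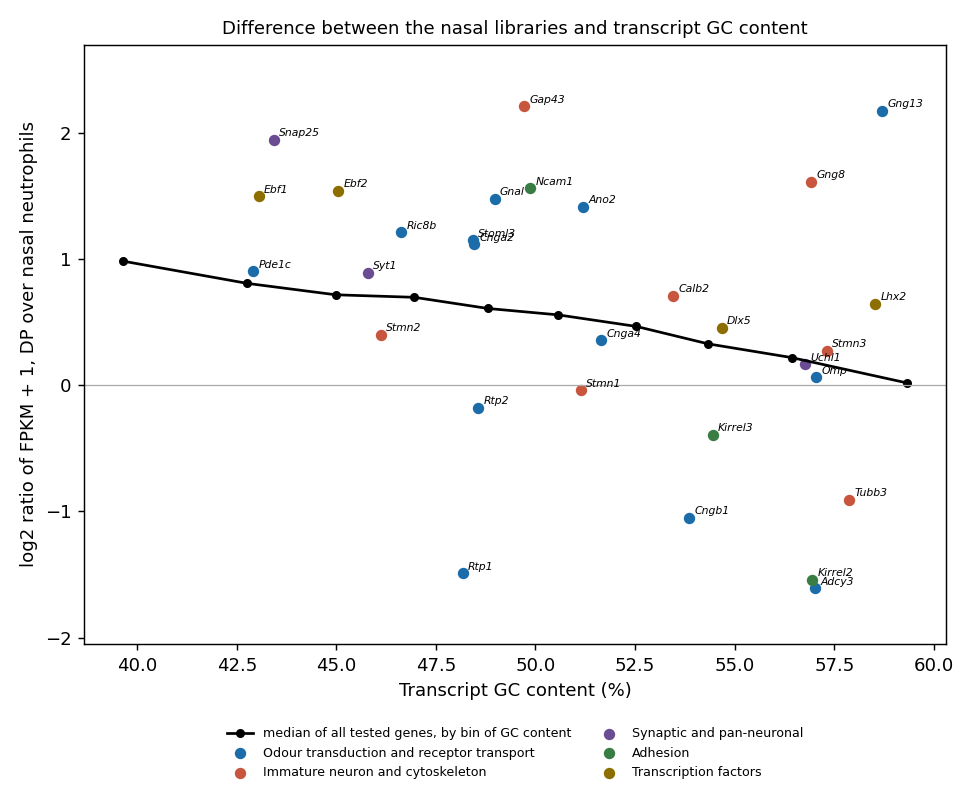
Log2 ratio of FPKM + 1, DP over nasal neutrophils, against GC content of the longest coding transcript in percent, 1 coloured point per tested member. The black line joins the medians of all tested genes in 10 bins of GC content, 0.98 at the lowest and 0.02 at the highest; Adcy3, Kirrel2 and Rtp1 lie far below it and Gng13 far above.

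Set against blood, the tested members were higher in the nose without exception, in a list that the filter admits mainly through the nasal libraries. Of the 30, 26 were at least 4-fold higher in DP than in blood neutrophils, where 24.0% of tested genes were, and 27 were so in nasal neutrophils, where 13.1% were. In neither comparison was a member at least 4-fold lower, where 3.57% and 3.23% of tested genes were. The median log2 ratio was 4.71 for DP over blood and 3.85 for nasal over blood neutrophils, beside 0.95 and 0.41 for all tested genes. These comparisons share the blood library. Of the members, 19 were listed at 0 in blood, where Cufflinks can write a 0 for an estimate that failed, and no fold is given for them. With 1 FPKM added, the tested members short of 4-fold were Cngb1, Kirrel2, Kirrel3 and Dlx5 in DP over blood, and Gng8, Kirrel3 and Dlx5 in nasal over blood neutrophils. As deposited, Cngb1 was 92.2-fold and Kirrel3 8.91-fold higher in DP than in blood, and Kirrel3 was 13.9-fold higher in nasal than in blood neutrophils. With 0.1 FPKM added in place of 1 FPKM, all 30 passed 4-fold in both comparisons. Of 10719 tested genes, 3847 did so in DP over blood and 2886 in nasal over blood neutrophils.

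Other genes of the pathway also divided between the nasal libraries. Of 26 further transduction genes, 18 were tested, with 2 at least 4-fold higher in DP, 0 lower and a median log2 ratio of 0.39, all with 1 FPKM added. Among all tested genes 8.42% were so much higher and 3.62% so much lower, for this list and those that follow. Among the largest differences were those in Calm2, a calmodulin gene, and in Gnb1, a G protein beta subunit gene, both of which leukocytes also express. Gnb1 stood at 1072 FPKM in DP, 238.6 FPKM in nasal neutrophils and 24.1 FPKM in blood neutrophils. Calm2 stood at 2831 FPKM in DP, 572.9 FPKM in nasal neutrophils and 1130 FPKM in blood neutrophils, so it was higher in blood than in nasal neutrophils.

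Of 22 further genes of mature neurons, 20 had a row and 14 were tested, with 1 at least 4-fold higher in DP, 0 lower and a median of -0.02 on FPKM + 1. S100a5, a calcium-binding protein gene strongly expressed in olfactory neurons, stood at 1517 FPKM in DP, 323.7 FPKM in nasal neutrophils and 0.373 FPKM in blood neutrophils. Syp, a synaptic vesicle protein gene, stood at 2.57 FPKM in DP, 11.3 FPKM in nasal neutrophils and 0.695 FPKM in blood neutrophils. Vamp2, a vesicle fusion gene, stood at 9.81 FPKM in DP, 31.6 FPKM in nasal neutrophils and 6.48 FPKM in blood neutrophils. As deposited, Syp in DP was at 0.228 of its nasal neutrophil level. Cck, a neuropeptide gene named after its values were seen, was in DP at 0.237 of its own level there, so both were over 4-fold lower before 1 FPKM was added. Syp and Vamp2 thus ran against Snap25, a partner of Vamp2 in vesicle fusion.

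Of 20 further genes of progenitors and early neurons, 12 were tested, with 1 at least 4-fold higher in DP, 1 lower and a median of -0.23 on FPKM + 1. Sox11, a factor of immature neurons, stood at 19.3 FPKM in DP and 3.53 FPKM in nasal neutrophils, with a 0 listed for blood. Atf5, a factor of the stress response and of olfactory neuron maturation, stood at 10.1 FPKM in DP, 49.7 FPKM in nasal neutrophils and 0.692 FPKM in blood neutrophils. Kit, a receptor of progenitors and of mast cells, stood at 1.57 FPKM in DP, 5.21 FPKM in nasal neutrophils and 0.672 FPKM in blood neutrophils. Sox11 was thus higher in DP, as Gap43 was, while Atf5 and Kit were lower.

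Transcripts of supporting cells of the olfactory epithelium were present in the same libraries. All 11 listed supporting-cell and epithelial markers with a row reached 1 FPKM in both nasal libraries and none did in blood, where Cyp2g1 and Epcam were at 0. They summed to 2352 FPKM in DP, 865.2 FPKM in nasal neutrophils and 1.58 FPKM in blood neutrophils, a 2.72-fold higher sum in DP than in nasal neutrophils. The member sum was 1.90-fold higher and the odorant receptor sum 3.14-fold higher in DP. Such sums lean on their most abundant genes, so they do not rank the lists. Cbr2, at 803.2 FPKM in DP and 161.8 FPKM in nasal neutrophils, and Cyp2f2, at 644.8 and 172.7 FPKM, led the marker sum. Stoml3, at 1104 and 497.3 FPKM, led the member sum. Of the 11 markers, 10 were higher in DP and 1 was lower. The 11 markers had a median log2 ratio of 1.10, with 2 at least 4-fold higher in DP and 0 lower. Their part in the levels of the members was not tested.

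**Figure D4:**
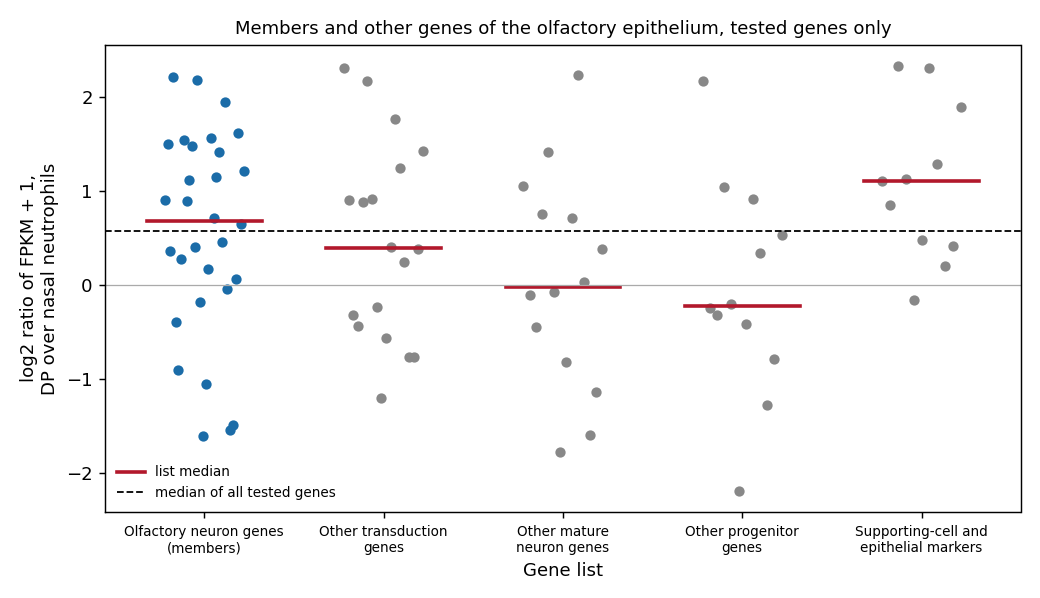
Log2 ratio of FPKM + 1, DP over nasal neutrophils, for the tested genes of 5 lists, 1 point per gene, with the list median in red. The medians are 0.68 for the members, 0.39 for other transduction genes, -0.02 for other mature neuron genes, -0.23 for other progenitor genes and 1.10 for supporting-cell and epithelial markers, and the dashed line is the median of all tested genes at 0.57.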

How the data were processed

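The authors deposited 1 table of gene values for each of the 3 libraries. The values were read as FPKM, made by the authors and deposited as decimals; the file headers do not name the unit, and it was taken from the Cufflinks column name and from the sums of 620230 to 663027 per library. Cufflinks 2.1.1, Bowtie2 2.1.0, TopHat2 2.0.8 and the mm9 genome are named in the submitters' processing notes; settings and annotation were not given in the sources used here.

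Values under 1e-06 FPKM (32, 20 and 43 genes in DP, nasal and blood neutrophils) were set to 0. Ratios were taken on log2(FPKM + 1), which understates low genes, over genes with a mean of 1 FPKM or more, and called at 4-fold; no test was possible with 1 library per group. Depth was estimated from the commonest product of value and length among genes with 1 transcript of more than 1500 nt; 61, 77 and 48 genes lay within 6% of that step in DP, nasal and blood neutrophils, and 18, 7 and 4 within 6% of 0.5 of it, so depth and fragment numbers are approximate. Transcript length and GC content were those of the longest coding transcript in GENCODE M21, matched by symbol or older symbol for 98.7% of tested genes. Promoter sequences are RefSeq's, on GRCm38.p6.

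The members and lists were chosen with earlier results of these data known. Of each other pathway list, the 3 tested genes with the largest ratio between the nasal libraries were named, except 1 that is not reported here; the pairs of members set in proportion and the motifs were chosen after values were seen. Alternatives were other pseudocounts, filters, scalings, thresholds and a length correction in 20 bins; the GC correction and a filter on either library were added after seeing the data. Python 3.11.15, numpy 2.4.6, pandas 2.3.3 and matplotlib 3.10.9 were used.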

Additional observations from a re-analysis of the deposited data

How the results depend on the processing

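Between the nasal libraries the members' result rests on the scaling. The count of members at least 4-fold higher in DP was 2 of 30 as reported, 4 with a pseudocount of 0.1 and 1 with one of 5. It was 0 when centred on the median, with upper-quartile scaling or with length correction, 1 with GC correction and 12 at a 2-fold threshold. Of 10719 tested genes, 903 were so much higher as reported, 1390 and 441 with those pseudocounts, 360 when centred and 3600 at 2-fold. With upper-quartile scaling 401 of 10672 were, with length correction 262 of 10580 and with GC correction 374 of 10580. The count at least 4-fold lower was 0 as reported, 3 when centred, 2 with upper-quartile scaling, 1 with GC correction and 4 at 2-fold. For tested genes these counts were 388, 773, 668, 638 and 1207 in that order. The median log2 ratio of the members, 0.68, was 0.10 when centred. It was -0.032, a change of sign, with length correction, which also centres the ratios. Centring changed the direction of 6 members. Length correction changed that of 7, the same 6 and Calb2. The causes were not tested.

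Against blood, pseudocounts of 0.1 and 5 gave medians of 6.51 and 2.12 for nasal over blood neutrophils and 6.89 and 2.76 for DP over blood. The median for DP over blood was 4.0 with no filter, 3.76 when centred, 3.74 with length correction and 3.69 with GC correction. Without genes at 0 in either library, at least 4-fold higher members numbered 13 of 15 for DP and 14 of 15 for nasal neutrophils. With a pseudocount of 5 there were 16 of 30 in nasal neutrophils. Among tested genes these counts were 2018 of 9832, 1088 of 9811 and 470 of 10719 in that order. Members in blood numbered 3 of 36 at 1 FPKM, beside 33.2% of all genes. They numbered 10 at 0.1 FPKM and 0 at 5 FPKM. The shares of all genes at those 2 thresholds were not counted, so these counts have nothing to be set beside. No replicate could be left out. No paired analysis was possible because each group is 1 library. Low members rest on few fragments in nasal neutrophils, the shallowest library.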

Other observations

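Markers of other cells that accompany olfactory neurons were read from the lists. Of 6 markers of olfactory ensheathing and other glia, 4 reached 1 FPKM in each nasal library and 0 in blood neutrophils, and 4 were listed at 0 in blood. They summed to 76.4 FPKM in DP, 24.3 FPKM in nasal neutrophils and 0.372 FPKM in blood neutrophils. Fabp7, a lipid-binding protein gene of ensheathing glia, stood at 62.1 FPKM in DP and 19.4 FPKM in nasal neutrophils, with a 0 listed for blood.

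Of 6 listed vomeronasal genes, Gnai2, a G protein alpha subunit gene that leukocytes also express, was the most abundant at 51.7 FPKM in DP, 40.7 FPKM in nasal neutrophils and 52.1 FPKM in blood neutrophils. Gnao1, a G protein alpha subunit gene of many neurons, stood at 2.69 FPKM in DP, 4.68 FPKM in nasal neutrophils and 0.0744 FPKM in blood neutrophils. The more specific genes were low. Trpc2, the channel of vomeronasal neurons, stood at 0.527 FPKM in DP and 2.04 FPKM in nasal neutrophils, with a 0 listed for blood, and Vmn2r1, a vomeronasal receptor gene, was listed at 0 in all 3 libraries. Of 8 listed macrophage markers with a row, the number that reached 1 FPKM was 6 in DP, 7 in the nasal and 3 in the blood neutrophil library, and they summed to 458.4, 544.0 and 400.2 FPKM in that order. C1qa, C1qb, C1qc and Mrc1 were listed at 0 in blood.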
